A study of Mus musculus with 3 samples.

Results

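Conventional type 2 dendritic cells (cDC2) were followed in single-cell RNA profiles of mouse mesenteric lymph node. They were picked by a rule on raw UMI counts (unique molecular identifiers, each standing for 1 captured transcript). A kept barcode was a member when it held at least 1 UMI of at least 3 of 9 cDC2 markers, namely Cd209a, Sirpa, Clec10a, Ppp1r14a, Clec4a4, Itgam, Mgl2, Ifitm6 and Mcemp1. It also needed at least 3 UMIs summed over H2-Aa, H2-Ab1 and H2-Eb1. It had to hold fewer than 3 UMIs of the C1q genes, no UMI of Xcr1, Cd3e or Ms4a1, and fewer than 3 of the 6 genes Fscn1, Ccl22, Ccr7, Apol7c, Serpinb6b and Zmynd15. The rule found 93 members among 67002 kept barcodes, with 17 in the LysoPS-OVA library, 48 in the free OVA library and 28 in the citrate buffer library.

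The study fed mice orally for 4 weeks and made 1 library per group from the pooled nodes of 6 animals. LysoPS-OVA mice received OVA, the model antigen ovalbumin, with lysophosphatidylserine (LysoPS, a lipid given as nanoparticles), and free OVA mice received OVA alone, with 1 µg in the title of both libraries. Citrate buffer mice received 5 mM citrate buffer, although the title of that library calls it an untreated control. The sources used here give no strain, genotype, sex or age. The labels name the tissue as mesenteric lymph node but the cell type as intestinal cells. In the members 7 of 9 gut epithelial markers had no UMI in any library, and the same libraries held 16513 B cell barcodes with UMIs of both Cd79a and Ms4a1. These counts do not settle the labels, since the members were picked by dendritic cell markers. With 1 pool per group the spread between animals is unknown, so differences between libraries are given as values with counting intervals and no test.

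Dendritic cells carry antigen to lymph nodes and show it to T cells on MHC molecules. Conventional dendritic cells divide into type 1 cells, which depend on Irf8 and cross-present antigen on MHC class I, and type 2 cells, which carry the inhibitory receptor Sirpa and present mainly on MHC class II to CD4 T cells. In the intestine and its nodes cDC2 carry antigen from the gut wall, and they are themselves mixed: in the mouse spleen a Notch2-dependent fraction carries Esam and the lectin Clec4a4, and another fraction shares Clec12a, Cx3cr1, Lyz2 and further genes with monocytes.

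Members were rare and held few UMIs. In every library the median member was deeper than the median migratory dendritic or C1q macrophage barcode. It was shallower than the median resident cDC1 barcode. The members' UMIs numbered 62335 in LysoPS-OVA, 175411 in free OVA and 91023 in citrate buffer. The median member held 2446, 2376.5 and 2225 UMIs, and single members ranged from 735 to 9321, from 1127 to 16709 and from 963 to 12012. Members just inside the threshold, with exactly 3 markers, numbered 12 in LysoPS-OVA, 31 in free OVA and 22 in citrate buffer. Barcodes just outside it, which met every other limit with 2 markers, numbered 43, 127 and 101 in the same order. Before the other limits 33, 77 and 79 barcodes held at least 3 markers. The B cell limit on Ms4a1 then removed 9, 13 and 15 of them and the T cell limit on Cd3e 2, 7 and 18. No cell barcode of a member recurred among another library's members, while 166 barcodes were shared between LysoPS-OVA and citrate buffer, 194 between free OVA and citrate buffer and 170 between LysoPS-OVA and free OVA. Barcodes poor in the nuclear RNA Malat1, at under 0.5% of UMIs, made up 52.9% of members in LysoPS-OVA, 81.3% in free OVA and 60.7% in citrate buffer. A single free OVA member carried 10677 haemoglobin UMIs among its 13465.

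The markers of the rule were seen unevenly, and their values are a description because they chose the members. Ifitm6, a member of the interferon-induced transmembrane family, had a UMI in 64 of 93 members. Its level was 481 CPM in LysoPS-OVA, 302 in free OVA and 264 in citrate buffer, where CPM is counts per 1000000, the gene's UMIs over all UMIs of a library's members. Ppp1r14a, an inhibitor of myosin phosphatase, was seen in 60 members at 225, 331 and 439 CPM in the same order. Mcemp1, a transmembrane protein named for mast cells and found in several myeloid cells, was seen in 55 members at 305, 291 and 330 CPM. The lectin Cd209a, a mouse relative of DC-SIGN, was seen in 45 members at 160, 257 and 242 CPM. Sirpa, which binds Cd47 and restrains phagocytosis, was seen in 40 members at 401, 268 and 385 CPM. The remaining markers were sparser: Itgam (Cd11b) in 23 members, Clec4a4 in 17, Clec10a in 14 and Mgl2 in 4.

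B cell barcodes, which should lack these markers, give the background of stray RNA, while the shares of the members are set by the rule. The share of members with a Cd209a UMI was 48.4%, against 0.327% of B cell barcodes, although the median B cell barcode was deeper than the median member, at 4559 UMIs in LysoPS-OVA, 5481.5 in free OVA and 3847 in citrate buffer. The same pair of shares was 68.8% and 0.309% for Ifitm6, 64.5% and 0.654% for Ppp1r14a, 59.1% and 0.715% for Mcemp1 and 43.0% and 1.62% for Sirpa. Ppp1r14a and Ifitm6 met in the same barcode most often, in 45 members, followed by Ifitm6 with Mcemp1 in 37 and Cd209a with Ifitm6 in 32. None of the lectins Cd209a, Clec10a, Clec4a4 and Mgl2 was seen in 31 of 93 members, while 87 of 93 held at least 1 of Ifitm6, Mcemp1 and Itgam. Cd209a lies at chr8:3743397-3748984 and Mcemp1 at chr8:3665754-3669259 (GRCm38), so these markers are near neighbours on chromosome 8. Ifitm6 at chr7:141015699-141017924 lies beside its relative Ifitm3 at chr7:141009586-141010770, and reads of such close relatives may be split between them by the counting.

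**Figure D1:**
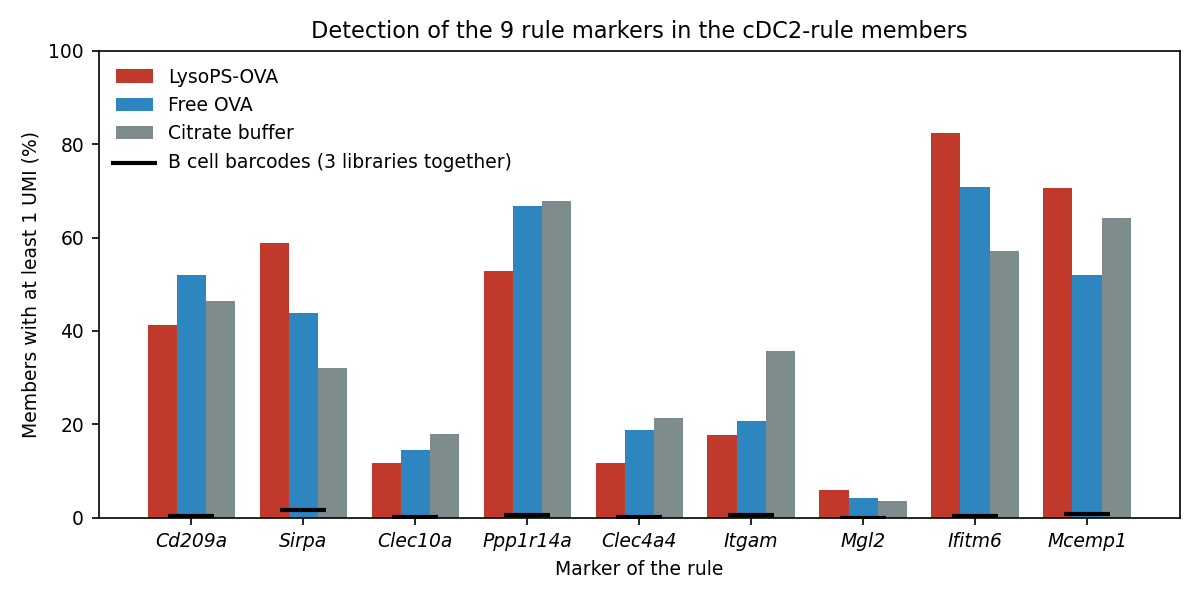
Share of members with at least 1 UMI of each of the 9 rule markers, in percent, with 1 bar per library (17, 48 and 28 members) and a black line for 16513 B cell barcodes. Ifitm6, Ppp1r14a and Mcemp1 were the markers most often seen over the 93 members (68.8%, 64.5% and 59.1%), and the B cell line stood at 0.309%, 0.654% and 0.715% for them.

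Genes of conventional dendritic cells that the rule did not use were seen in a part of the members. Spi1, the myeloid transcription factor PU.1, was seen in 72.0% of members, Cst3 (cystatin C, abundant in dendritic cells) in 83.9% and Cd74, the invariant chain of MHC class II, in 92 of 93. B cells also use these genes, with a UMI in 29.2%, 69.0% and 99.2% of their barcodes. Zbtb46, the transcription factor that marks the conventional lineage, was seen in 17 of 93 members (18.3%), against 9.90% of resident cDC1 barcodes, 3.04% of migratory dendritic cell barcodes and 1.88% of B cell barcodes. Kit, the stem cell factor receptor, was seen in 18 members (19.4%, against 0.478% of B cell barcodes), Itgax (Cd11c) in 23 (24.7%, against 0.503%) and Flt3, the receptor on which the lineage depends, in 11 (11.8%, against 8.21%). Irf4, which cDC2 use, was seen in 4 members, at 0 UMIs in LysoPS-OVA, 6 in free OVA and 3 in citrate buffer, and B cells, which use Irf4 too, held it in 23.2% of barcodes. Irf8, the factor of cDC1, was seen in 19.4% of members, against 85.9% of cDC1 and 61.6% of B cell barcodes. Of 15 genes of the Notch2-dependent list 11 had a UMI in members, with a summed level of 626 CPM in LysoPS-OVA, 296 in free OVA and 319 in citrate buffer, and Esam, Heyl, Nr4a3 and Areg had none.

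Monocyte-shared genes were present beside these. S100a4, a calcium-binding protein, was seen in 85 of 93 members (91.4%) at 1893 CPM in LysoPS-OVA, 2275 in free OVA and 1736 in citrate buffer. It was seen in 6.07% of cDC1, 11.1% of migratory dendritic, 20.3% of C1q macrophage and 3.99% of B cell barcodes. In the barcodes with 2 markers its share was 83.8%. Among the marker lists of other cell types, Vcan, F13a1, Chil3 and Ly6c1 of 14 monocyte markers, 8 of 13 macrophage markers, 7 of 10 neutrophil markers including S100a8 and S100a9, and all 8 mast cell and basophil markers had no UMI in any member. The summed monocyte markers were 626 CPM in LysoPS-OVA, 194 in free OVA and 297 in citrate buffer, and the summed macrophage markers 578, 74.1 and 308 CPM. The summed migratory dendritic markers were 2037, 889 and 2087 CPM in the same order, the cDC1 markers 898, 832 and 1307 CPM and the plasmacytoid dendritic markers 433, 604 and 472 CPM. The summed B cell markers stood at 1027, 867 and 989 CPM, with each of 12 seen. The summed T cell markers stood at 321, 182 and 549 CPM, with each of 13 seen. No UMI of Cd79a, Cd79b, Cd3d, Cd3g, Trac or Trbc2 was held by 7 of 17 members in LysoPS-OVA. The same was true of 36 of 48 in free OVA and 10 of 28 in citrate buffer. Shares and some ratios between libraries without the barcodes that held any of these 6 genes are given below. Beyond that, the part of this lymphocyte RNA in differences between libraries was not tested. At these depths a missing UMI does not limit the cells that use a gene, and the barcodes are called members of the cDC2 rule here.

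Within the members 2 small sets of deep barcodes stood apart, and both were chosen after their values were seen. Lyz2 (lysozyme, at chr10:117277331-117282321), a gene of monocytes and macrophages, was seen in 25 members, 9 in LysoPS-OVA, 8 in free OVA and 8 in citrate buffer. Its 823 UMIs were concentrated, with 77.2% of them in 5 members. The 25 held a median of 4220 UMIs, against 2085.5 in the other 68, and they gave 62.1% of the members' UMIs in LysoPS-OVA, 35.4% in free OVA and 37.0% in citrate buffer. At least 10 Lyz2 UMIs were found in 11 members (5, 3 and 3). Of these 11, all held Sirpa, Plac8 and Fcer1g (the shared Fc receptor chain), 10 held Csf1r, the receptor for macrophage growth factor, 10 held the fractalkine receptor Cx3cr1, 9 held Clec4a3, and 8 each held Adgre4 and Ly6i. Ppp1r14a, Clec4a4 and Dscam had no UMI in them. Clec4a4 was seen in 0 of the 25 members with Lyz2 and in 17 of the 68 without it. Ppp1r14a was seen in 9 of the 25 and in 51 of the 68. Sirpa, Clec4a4 and Ppp1r14a are markers of the rule, and a barcode that holds other markers can enter without them. Their split between these members is therefore set partly by the rule.

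The other set was 6 members with at least 5 UMIs each of Adgrl3 and Dscam (2 in LysoPS-OVA, 1 in free OVA and 3 in citrate buffer), with 5475 to 9321 UMIs each. Adgrl3 (latrophilin 3, an adhesion receptor, chr5:81020138-81825133) and Dscam (a cell adhesion molecule, chr16:96590840-97170752) are long genes best known from neurons. All 6 also held Zbtb46, Kit, Sirpa, Ppp1r14a, Mcemp1, Frmd5 and the sodium-calcium exchanger Slc8a1, 5 held Flt3 and 4 held Clec4a4. Lyz2, Csf1r, Adgre4 and Ly6i had no UMI in them. Sirpa, Ppp1r14a, Mcemp1 and Clec4a4 are markers of the rule, so their shares in the 6 are set partly by it. Of the 48 Zbtb46 UMIs in all 93 members, these 6 held 35. The 11 members gave 24.2% of all members' UMIs and the 6 gave 13.4%, so sums over members weigh them heavily. Malat1 made up 2.135% to 3.975% of UMIs in the 6 and 0.108% to 2.10% in the 11. The median member stood at 0.412% in LysoPS-OVA, 0.184% in free OVA and 0.343% in citrate buffer. The part of depth and of the Malat1 share in these patterns was not tested.

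**Figure D2:**
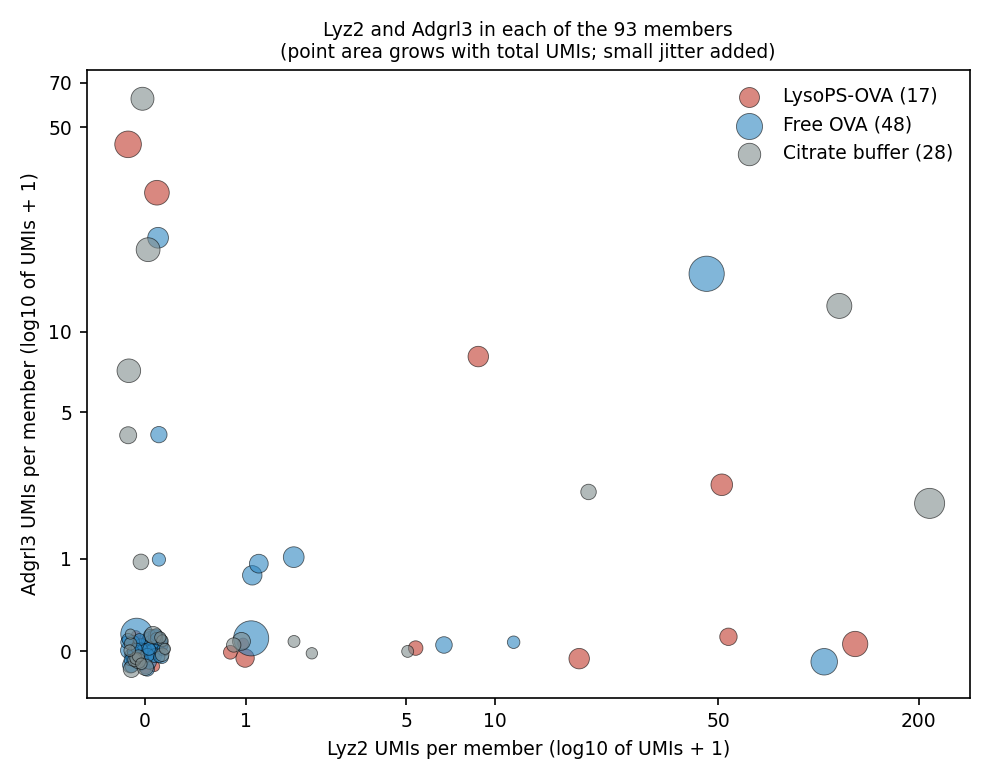
UMIs of Lyz2 and Adgrl3 in each of the 93 members on log10 axes of UMIs + 1, with point area growing with total UMIs and colour giving the library. Most members sit at 0 on both axes, 11 members lie at 10 or more Lyz2 UMIs, and the 6 members rich in Adgrl3 and Dscam lie on the left edge with no Lyz2 UMI.

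The share of members was compared between libraries first. Members made up 0.0981% of kept barcodes in LysoPS-OVA (exact binomial 95% interval 0.0572 to 0.157), 0.206% in free OVA (0.152 to 0.273) and 0.106% in citrate buffer (0.0706 to 0.154). Free OVA was the highest, and the intervals of LysoPS-OVA and citrate buffer overlapped almost wholly. The ratio of shares was 0.924 for LysoPS-OVA over citrate buffer (0.506 to 1.69), 1.94 for free OVA over citrate buffer (1.22 to 3.08) and 0.477 for LysoPS-OVA over free OVA (0.274 to 0.829). These intervals cover counting error only. With some other choices of members the intervals for free OVA over citrate buffer and for LysoPS-OVA over free OVA included 1.

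Other antigen-presenting classes also had their highest share in free OVA. Migratory dendritic cell barcodes were 3.75% of kept barcodes in LysoPS-OVA, 7.48% in free OVA and 4.50% in citrate buffer, resident cDC1 barcodes 0.364%, 0.690% and 0.338%, and C1q macrophage barcodes 0.185%, 0.386% and 0.247%. Among the antigen-presenting barcodes, the sum of these classes and the members, members made up 2.23% of 762 in LysoPS-OVA, 2.35% of 2044 in free OVA and 2.05% of 1368 in citrate buffer. On that denominator the ratio was 1.09 for LysoPS-OVA over citrate buffer (0.601 to 1.98), 1.15 for free OVA over citrate buffer (0.724 to 1.82) and 0.950 for LysoPS-OVA over free OVA (0.550 to 1.64). Every one of these intervals includes 1, and none of them is narrow enough to show that the shares were alike. The median kept barcode held 4248 UMIs in LysoPS-OVA, 1871 in free OVA and 2829.5 in citrate buffer, and the part of depth in the higher free OVA share was not tested. With every barcode thinned to 1000 UMIs and shallower ones left out, members numbered 3 in LysoPS-OVA, 15 in free OVA and 9 in citrate buffer. The ratio of kept-barcode shares was then 0.222 for LysoPS-OVA over free OVA (0.0641 to 0.765) and 2.36 for free OVA over citrate buffer (1.035 to 5.40). For LysoPS-OVA over citrate buffer it was 0.524 (0.142 to 1.93). Without thinning, barcodes of at least 1000 UMIs gave 2.52 for free OVA over citrate buffer (1.57 to 4.04) and 0.346 for LysoPS-OVA over free OVA (0.194 to 0.618).

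**Figure D3:**
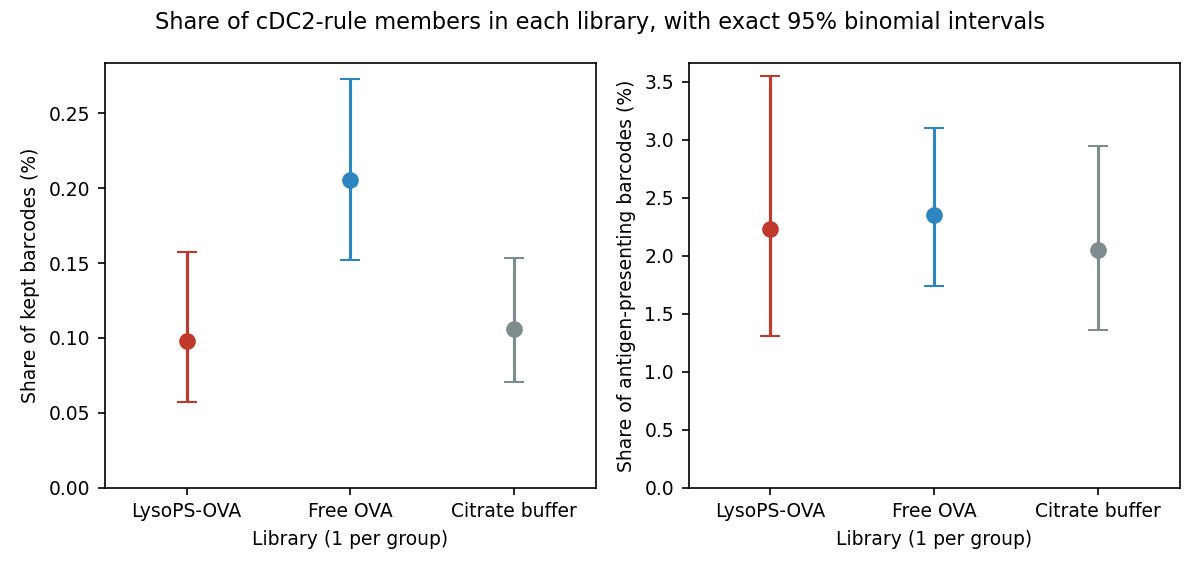
Share of members among kept barcodes (left) and among antigen-presenting barcodes (right), in percent, with exact 95% binomial intervals and 1 point per library. The free OVA library stands at 0.206% of kept barcodes, against 0.0981% in LysoPS-OVA and 0.106% in citrate buffer, and the 3 libraries lie between 2.05% and 2.35% of antigen-presenting barcodes.

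The members were next set against their neighbours, with UMIs summed per library and class and edgeR's quasi-likelihood test with library as a term, over the same 3 libraries. The 3 libraries differ in treatment and each is 1 pool, so n = 3 libraries gives the spread over them and nothing on animals. All genes of the class rules were left out of the calls. The classes are still cut from the same UMIs, so genes that go with the rule's markers had to differ: the calls describe the classes and support nothing about the rule. Resident cDC1 barcodes held Xcr1 or Clec9a and at least 2 of 5 cDC1 genes, migratory barcodes at least 3 of the 6 migratory genes, and C1q barcodes at least 3 C1q UMIs.

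Against resident cDC1 barcodes (313), 464 of 2945 genes passed an adjusted p of 0.05, which is 15.8% of those tested, with 222 higher (7.54%) and 242 lower (8.22%) in members. With library totals in place of TMM scaling, which moved the median gene by 0.33 log2, the split was 413 higher and 125 lower. Without the Lyz2 members 145 were higher and 124 lower, and without the citrate buffer library 187 genes passed in all. S100a4 averaged 1968 ± 277 CPM in members and 62.7 ± 51.7 CPM in cDC1 (SD, n = 3 libraries), a log2 fold change of 4.66 ± 0.32 (SE, edgeR adjusted p 3.39e-06), and 4.91 without the Lyz2 members. Cd300a, an inhibitory receptor for phosphatidylserine, averaged 232 ± 63.0 CPM in members and 8.72 ± 11.6 CPM in cDC1, and was higher by 4.04 log2. Gpr183, the oxysterol receptor that positions cDC2 and lymphocytes in the node, averaged 151 ± 79.6 CPM in members and 37.4 ± 25.7 CPM in cDC1, higher by 1.94 log2 (edgeR adjusted p 0.00712). Ccr2, a chemokine receptor of monocytes and some cDC2, was higher by 1.80 log2 (edgeR adjusted p 0.028), and it was not among the genes that could be tested without the Lyz2 members. For these 4 genes every library's members lay above every library's cDC1 barcodes.

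Genes of dendritic lineage split between these classes. Zbtb46 averaged 178 ± 90.1 CPM in members and 59.3 ± 26.9 CPM in cDC1, higher by 1.21 log2 (edgeR adjusted p 0.0462), although the libraries' values overlapped. Of its 48 UMIs in members 68.8% lay in 5 members. Relb, an NF-kB subunit, rose by 1.26 log2 with 198 ± 19.6 CPM in members and 71.3 ± 13.7 CPM in cDC1, and Runx3 and Dpp4 rose too. Irf8 fell by 3.83 log2, with 93.4 ± 18.0 CPM in members and 1137 ± 194 CPM in cDC1, and Cst3 fell by 3.34 log2. Btla, Cd24a, Id2 and Flt3 also fell, so 4 of 16 tested identity genes were higher and 6 lower. Kit averaged 75.1 ± 20.7 CPM in members and 44.0 ± 7.72 CPM in cDC1 and did not pass (0.50 log2, edgeR adjusted p 0.497). The median log2 fold change of these identity genes was 0.42, against 0.00 over all genes tested, and with library totals 7 were higher and 5 lower. The MHC class II machinery had 2 of 11 genes higher (Ctss and Ciita) and Cd74 lower, while with library totals 5 were higher and 0 lower.

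Of the cDC1 markers outside the rule 5 of 7 were lower in members: Gcsam, Naaa, Irf8, Cd8a and Ifi205. Naaa, an acid amidase of the lysosome, averaged 44.5 ± 20.7 CPM in members and 777 ± 15.6 CPM in cDC1, a fall of 4.21 log2. The chemokine Cxcl9, which draws activated T cells, had 3 UMIs in all members and 1138 in cDC1, 109-fold higher in cDC1 with a counting interval of 37.1 to 527. Ppt1, a lysosomal thioesterase, averaged 97.2 ± 12.2 CPM in members and 1336 ± 118 CPM in cDC1, a fall of 4.07 log2. Gbp2b and Plpp1 had no UMI in members, which puts them at least 9.54-fold and 8.78-fold lower than in cDC1 when a floor of 3 UMIs over all members is used. NF-kB genes were higher in 3 of 7 tested: Rel by 1.58 log2, Nfkb1 by 1.39 and Nfkbia by 0.997, which is the median of the list. Lysosome and uptake genes were higher in 6 of 12 (Fcer1g, Cybb, Ctsa, Ctsc, Lamp1 and Ctsh), while 2 of 11 passed without the Lyz2 members. Of the mitochondrial transcripts 6 of 11 were lower, and 0 of 11 passed with library totals in place of TMM or without the Lyz2 members.

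The highest fold changes against cDC1 rested on few members. Dscam at 7.03 log2 had 111 UMIs in 13 members with 83.8% of them in 5, Adgre4 at 6.74 log2 had 55 UMIs in 11 members, and Dpp10 at 6.46 log2 had 45 UMIs in 8 members with 91.1% of them in 5. Adgrl3 had 245 UMIs in 19 members, 75.1% of them in 5, and was higher by 5.05 log2, or by 5.76 without the Lyz2 members. Lyz2 itself averaged 3196 ± 1951 CPM in members and 64.5 ± 49.2 CPM in cDC1. Ly6i and Cx3cr1 likewise came mainly from the Lyz2 members, with 48 of 53 and 25 of 27 UMIs. Sirpb1c, a relative of Sirpa whose copies Sirpb1a and Sirpb1b may share its reads, was spread wider, over 21 members at 112 CPM in LysoPS-OVA, 96.9 in free OVA and 132 in citrate buffer, against 1 UMI in all cDC1 barcodes.

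Against migratory dendritic cell barcodes (3581), which have left the tissue and matured, 1553 of 6575 genes passed (23.6%), 670 higher (10.2%) and 883 lower (13.4%) in members. With library totals in place of TMM, which moved the median gene by 0.46 log2, 1150 were higher and 469 lower. Without the Lyz2 members 404 were higher and 526 lower, and without the free OVA library 996 passed in all. MHC class I genes were lower in 11 of 16 tested, with a median log2 fold change of -1.53 against -0.06 over all genes. B2m, the light chain of MHC class I, averaged 1867 ± 390 CPM in members and 4548 ± 576 CPM in migratory cells, a fall of 1.74 log2 (edgeR adjusted p 4.65e-07). The proteasome activator Psme2 fell by 2.69 log2, with 336 ± 85.2 CPM in members and 1644 ± 95.6 CPM in migratory cells. With library totals 10 of the 16 were lower and 1 was higher, and without the Lyz2 members 11 were lower.

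The MHC class II machinery moved the other way in part: 7 of 12 genes were higher and 2 lower. Ciita, the master regulator of MHC class II, averaged 435 ± 144 CPM in members and 52.3 ± 9.27 CPM in migratory cells, a rise of 2.57 log2 (edgeR adjusted p 1.48e-06), and 2.65 without the Lyz2 members. H2-DMb1, which loads peptide, rose by 2.52 log2, and H2-DMa, H2-DMb2, H2-Oa, Ctss and Cd74 rose as well. Lgmn, an endosomal protease, and Ifi30, an endosomal reductase, fell. For Ctss and Cd74 the fold change was 0.00 and 0.06 log2 without the Lyz2 members. B cell markers were lower in members in 6 of 12 tested and T cell markers in 9 of 13, or in 2 and 5 with library totals, and their part in these results was not tested.

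Genes of migration and maturation were lower in members: 11 of 12 migratory markers outside the rule fell, with a median of -4.49 log2. Aldh1a2, the enzyme that makes retinoic acid in gut dendritic cells, had 1 UMI in 93 members and averaged 361 ± 49.7 CPM in migratory cells. The chemokine Ccl17 had no UMI in members, at least 15.7-fold lower, and Cxcl16 and Ccl5 fell by 4.98 and 4.85 log2. Il15, Tubb2b, Cacnb3, Snn, Arhgap31, Fam89a and Gbp2b also had no UMI in any member, which puts Il15 at least 9.17-fold lower and Tubb2b at least 27.5-fold lower. Relb, Irf8, Id2 and Cst3 fell, while Itgax rose by 3.54, Kit by 2.92, Zbtb46 by 1.93 and Spi1 by 1.07 log2. For Zbtb46 68.8% of the members' UMIs lay in 5 members. Il1b (interleukin 1 beta) rose by 3.04 log2 with 116 ± 80.4 CPM in members and 8.18 ± 2.52 CPM in migratory cells, and Tgfb1 rose by 1.43 log2. Without the Lyz2 members Il1b still passed, at 2.77 log2, and Tgfb1 did not (edgeR adjusted p 0.179). Flt3 averaged 69.1 ± 31.8 CPM in members and 89.2 ± 36.0 CPM in migratory cells (edgeR adjusted p 0.104). Cd80 rose by 2.94 log2, whereas Cd86 (-0.05 log2) and Cd274 (0.38 log2) did not pass. Of 12 tested costimulatory and coinhibitory genes 3 were higher in members (Havcr2, Cd80 and Vsir) and 4 lower (Cd200, Cd40, Btla and Cd83). With library totals 3 were higher and 2 lower. The 11 tested genes of the monocyte-sharing list were all higher, and of the 5 that could be tested without the Lyz2 members 4 were higher and 1 lower.

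Against C1q macrophage barcodes (187), 227 of 1462 genes passed (15.5%), 137 higher (9.37%) and 90 lower (6.16%) in members. With library totals 172 were higher and 77 lower, and without the citrate buffer library 83 passed in all. Lipid genes were lower in 4 of 4 tested. Apoe averaged 182 ± 196 CPM in members and 11490 ± 1731 CPM in macrophages, a fall of 6.43 log2 (edgeR adjusted p 5.17e-09). The oxysterol receptor Nr1h3 had no UMI in members, at least 21.1-fold lower, and Fabp5 and Npc2 fell. Pla2g2d, a secreted phospholipase of resident macrophages, had no UMI in members, at least 69.0-fold lower, and Ms4a7 had 2 UMIs, 65.6-fold higher in macrophages with a counting interval of 17.7 to 548. Lyz2 also fell, while S100a4 rose by 3.05 log2, Cd300a by 1.76 and Ccr2 by 1.75. Csf1r averaged 192 ± 156 CPM in members and 270 ± 59.5 CPM in macrophages and did not pass with all members (edgeR adjusted p 0.239), and it was lower by 3.45 log2 without the Lyz2 members (edgeR adjusted p 0.00026). Ciita rose by 2.51 and Relb by 1.63 log2. NF-kB genes were higher in 4 of 5 tested, of which 1 of 4 passed without the Lyz2 members.

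Some calls changed when the Lyz2 members were left out. Plac8 averaged 1563 ± 884 CPM in members and 413 ± 164 CPM in cDC1, a rise of 1.62 log2 that was 0.62 and did not pass without them (edgeR adjusted p 0.32). Cybb, the NADPH oxidase subunit, rose by 2.43 log2 over cDC1 and did not pass without them at 1.14 log2 (edgeR adjusted p 0.082).

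**Figure D4:**
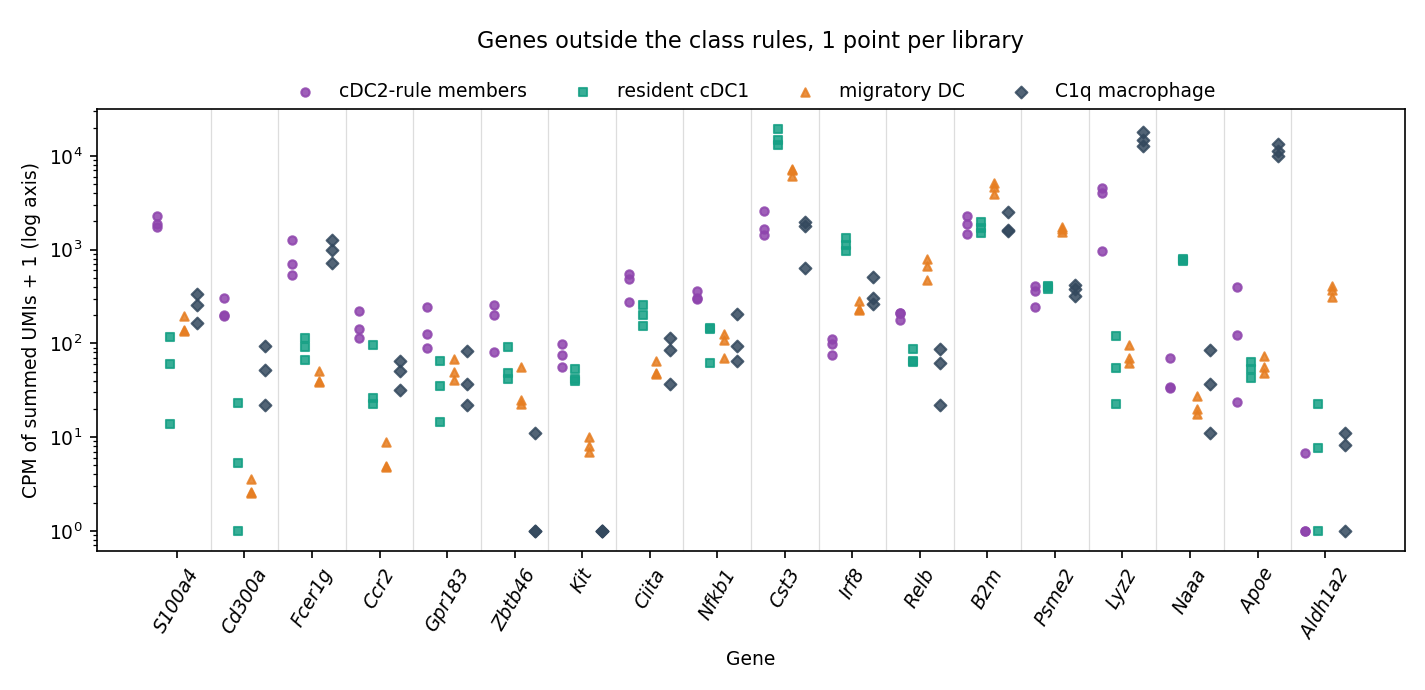
Level in CPM of summed UMIs + 1 (log axis) of 18 genes outside the class rules, with 1 point per library for members, resident cDC1, migratory dendritic cell and C1q macrophage barcodes. S100a4 lay between 1736 and 2275 CPM in members and above every other class, Irf8 lay between 74.1 and 110 CPM in members, and the Lyz2 points of members spread from 964 to 4572 CPM.

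The lectins Cd209a and Clec4a4 mark different cDC2 fractions, so the members with only one of them were compared. Cd209a without Clec4a4 was seen in 6 members of LysoPS-OVA, 24 of free OVA and 11 of citrate buffer, and Clec4a4 without Cd209a in 1, 8 and 4. Both met in 4 members. None of 189 genes passed edgeR's test at an adjusted p of 0.05 (0%), 6 had an unadjusted p under 0.05, and DESeq2 called 0 with 15 under an unadjusted 0.05. With so few members this does not show that the fractions were alike.

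Genes within the members were then compared between libraries. A gene was called when it lay past 1 log2, on CPM with a pseudocount of 10 CPM, and its higher library reached 50 CPM and 30 UMIs. With these floors 382 genes could be compared between LysoPS-OVA and citrate buffer, 598 between free OVA and citrate buffer and 560 between LysoPS-OVA and free OVA, of 32285 in the files. The 3 comparisons share libraries, so they are not independent. A floor of 30 UMIs lets genes enter at a lower CPM in free OVA, with 175411 member UMIs, than in LysoPS-OVA, with 62335. The medians and the splits of higher and lower genes below are set partly by that floor. The 17 members of LysoPS-OVA are the fewest, and single barcodes weigh there most. The deepest held 15.0% of that library's member UMIs, against 9.53% in free OVA and 13.2% in citrate buffer. Without the Lyz2 members 8 members of LysoPS-OVA were left, with 23606 UMIs. Of these UMIs 17276 lay in 2 members of the Adgrl3 set, so LysoPS-OVA values without the Lyz2 members rest largely on those 2.

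LysoPS-OVA over citrate buffer called 39 of 382 genes (10.2%), 15 higher (3.93%) and 24 lower (6.28%), with a median log2 ratio of -0.14 over all of them. Ctsb (cathepsin B, a lysosomal protease) stood at 545 CPM in LysoPS-OVA, from 34 UMIs in 6 members, and at 76.9 CPM in citrate buffer, from 7 UMIs in 5 members. That is 7.09-fold with a counting interval of 3.10 to 19.0. Without the Lyz2 members its log2 ratio was 0.22 in place of 2.68. Ifitm3, an antiviral membrane protein, stood at 2454 CPM in LysoPS-OVA and 593 CPM in citrate buffer (log2 ratio 2.03), and at 0.00 without the Lyz2 members. Plac8 stood at 2583 CPM in LysoPS-OVA and 1022 CPM in citrate buffer, a log2 ratio of 1.33 that was -1.87 without them. For Atp11b, a phospholipid flippase, the log2 ratio was 1.33 for all members and 0.10 without the Lyz2 members.

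Syk, Fyb and Nfkbia lay past 1 log2 both with and without the Lyz2 members. Without them 2 members of the Adgrl3 set gave 17276 of the 23606 LysoPS-OVA UMIs. Syk, the kinase downstream of lectin and Fc receptors, stood at 513 CPM in LysoPS-OVA, from 6 members, and at 165 CPM in citrate buffer, from 8 members. Its log2 ratio was 1.58 for all members and 1.51 without the Lyz2 members. Fyb, an adaptor of the same pathways, stood at 1733 CPM in LysoPS-OVA and 703 CPM in citrate buffer, 1.29 for all members and 1.17 without. With barcodes of 2 markers added, Syk was at 0.74 and Fyb at 0.75, and without barcodes that held B or T cell receptor genes Fyb was at 0.47. Its log2 ratio between the same libraries was -1.03 in B cell barcodes, -0.57 in migratory and 0.75 in cDC1 barcodes. Nfkbia, the NF-kB inhibitor, stood at 658 CPM in LysoPS-OVA and 319 CPM in citrate buffer, with a log2 ratio of 1.02 for all members and 1.05 without. Esrrg, an orphan nuclear receptor, rested on 2 members of LysoPS-OVA and 3 of citrate buffer, and Plek lay past 1 log2 for all members (1.32) but not without the Lyz2 members (0.82).

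Among the genes lowest in LysoPS-OVA against citrate buffer, Gapdh, Eif4a1, Set, Ranbp1 and Tuba1b had 12, 6, 9, 7 and 9 UMIs in LysoPS-OVA. Gapdh, the glycolytic enzyme, stood at 193 CPM in LysoPS-OVA, from 7 members, and at 571 CPM in citrate buffer, from 22 members, a log2 ratio of -1.52. Eif4a1, a translation helicase, stood at 96.3 CPM in LysoPS-OVA and 374 CPM in citrate buffer (-1.85). Set, a histone chaperone, was at -1.58, Ranbp1, of nuclear transport, at -1.56 and Tuba1b, a tubulin, at -1.39. Without the Lyz2 members these 5 lay between -2.91 and -1.16. With barcodes of 2 markers added, Gapdh was at -0.36, Eif4a1 at -0.65, Set at -0.62, Ranbp1 at -0.45 and Tuba1b at 0.57. Bcl2a1a, a survival gene with near-identical copies that may share its reads, stood at 80.2 CPM in LysoPS-OVA and 363 CPM in citrate buffer (-2.05). Between the same libraries the first 5 genes lay between -0.75 and 0.82 log2 in migratory, cDC1 and B cell barcodes. Wnk1 was at -1.39 for all members and -0.46 without the Lyz2 members. For Plxdc2 90.9% of the citrate buffer UMIs came from 1 member, and without the deepest member of each library its log2 ratio was 1.41 in place of -1.84.

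Free OVA over citrate buffer called 80 of 598 genes (13.4%), 27 higher (4.52%) and 53 lower (8.86%), with a median of 0.10. The transcription regulator Lmo4 stood at 296 CPM in free OVA, from 23 of 48 members, and at 65.9 CPM in citrate buffer, from 5 of 28 members, a log2 ratio of 2.01 and 2.42 without the Lyz2 members. Basp1, a membrane-bound signalling protein, stood at 302 CPM in free OVA, from 24 members, and at 87.9 CPM in citrate buffer, from 7 members (1.67). The proteasome subunit Psmb5 stood at 171 CPM in free OVA, from 21 members, and at 54.9 CPM in citrate buffer, from 5 members (1.48). With barcodes of 2 markers added, Lmo4 was at 0.47, Basp1 at 0.64 and Psmb5 at -0.08. Mkrn1 was at 1.62 and the interferon-inducible Mndal at 2.04, with 56.5% of the free OVA UMIs of Mndal in 1 member. Without the haemoglobin-rich member Mkrn1 was at 0.99. Ifitm1, Gria3 and Cd7 had higher ratios that rested on single barcodes: 56.8%, 96.9% and 70.6% of their free OVA UMIs came from 1 member.

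Of the 8 lowest ratios 4 belonged to Adgrl3, Dscam, Frmd5 and Slc8a1, which every member of the small Adgrl3 set held. Adgrl3 stood at 251 CPM in free OVA and 1285 CPM in citrate buffer (-2.31), and Slc8a1 at 285 CPM in free OVA and 1340 CPM in citrate buffer (-2.19). Dscam was at -2.27 and Frmd5 at -2.18. Between the same libraries Slc8a1 was at -0.89 in migratory, -1.99 in cDC1 and -0.91 in B cell barcodes. In the same order Adgrl3 was at -0.99, -1.13 and -0.11, Dscam at -0.61, -0.17 and -0.19, and Frmd5 at 0.12, -1.74 and 0.04. Of the 233 Slc8a1 UMIs in all members, 113 lay in the Lyz2 members. These genes came from 4 to 8 members per library, and the 6 members of that set were 1 in free OVA and 3 in citrate buffer. The chemokine Ccl5 stood at 114 CPM in free OVA, from 15 members, and at 736 CPM in citrate buffer, where 47.8% came from 1 of 12 members (-2.59). Slc9a9, an endosomal sodium-proton exchanger, stood at 62.7 CPM in free OVA and 450 CPM in citrate buffer (-2.66). It was at -1.12 in migratory, -1.33 in cDC1 and -0.79 in B cell barcodes. Plxdc2 had the lowest ratio, with 45.6 CPM in free OVA and 483 CPM in citrate buffer (-3.15), and it was at 0.91 without the Lyz2 members. Cdk14, a cyclin-dependent kinase, stood at 91.2 CPM in free OVA and 461 CPM in citrate buffer (-2.22). Lyz2 was lower too, at 964 CPM in free OVA and 4054 CPM in citrate buffer from 8 members each, with 61.5% of the citrate buffer UMIs in 1 member.

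LysoPS-OVA over free OVA called 125 of 560 genes (22.3%), 61 higher (10.9%) and 64 lower (11.4%), with a median of -0.27. Lyz2 and Adgrl3, the genes by which the small sets were picked out, were among the higher genes. Lyz2 stood at 4572 CPM in LysoPS-OVA, with 48.8% from 1 member, and at 964 CPM in free OVA, with 58.0% from 1 member. Adgrl3 stood at 1348 CPM in LysoPS-OVA and 251 CPM in free OVA (2.38), and Frmd5, Esrrg and St8sia6 lay between 2.50 and 2.76. Between the same libraries Adgrl3 was at 0.35 in migratory, 2.83 in cDC1 and 0.10 in B cell barcodes. Frmd5 was at 1.06, 1.29 and -0.07 in the same order, and Esrrg and St8sia6 lay between -0.59 and 0.59. Ctsb was at 2.23 for all members and -0.91 without the Lyz2 members. Ccl5 was at 2.24, with 94.4% of its LysoPS-OVA UMIs in 1 member, and at -0.98 without them. Fyb stood at 1733 CPM in LysoPS-OVA and 359 CPM in free OVA, a log2 ratio of 2.24 and 2.12 without the Lyz2 members. Its ratio was 0.50 in migratory, 1.65 in cDC1 and 0.41 in B cell barcodes. Among the lower genes Anp32b, a histone chaperone, stood at 80.2 CPM in LysoPS-OVA, from 5 UMIs, and at 354 CPM in free OVA, from 62 UMIs in 27 members (-2.01). Hmgn1, Bclaf1, Psmd8 and Srrm1 lay between -2.47 and -1.85, with 2 to 4 UMIs each in LysoPS-OVA. Their folds have wide counting intervals, for Psmd8 0.0193 to 0.646. Gria3 had no UMI in LysoPS-OVA, and 96.9% of its free OVA UMIs came from 1 member.

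**Figure D5:**
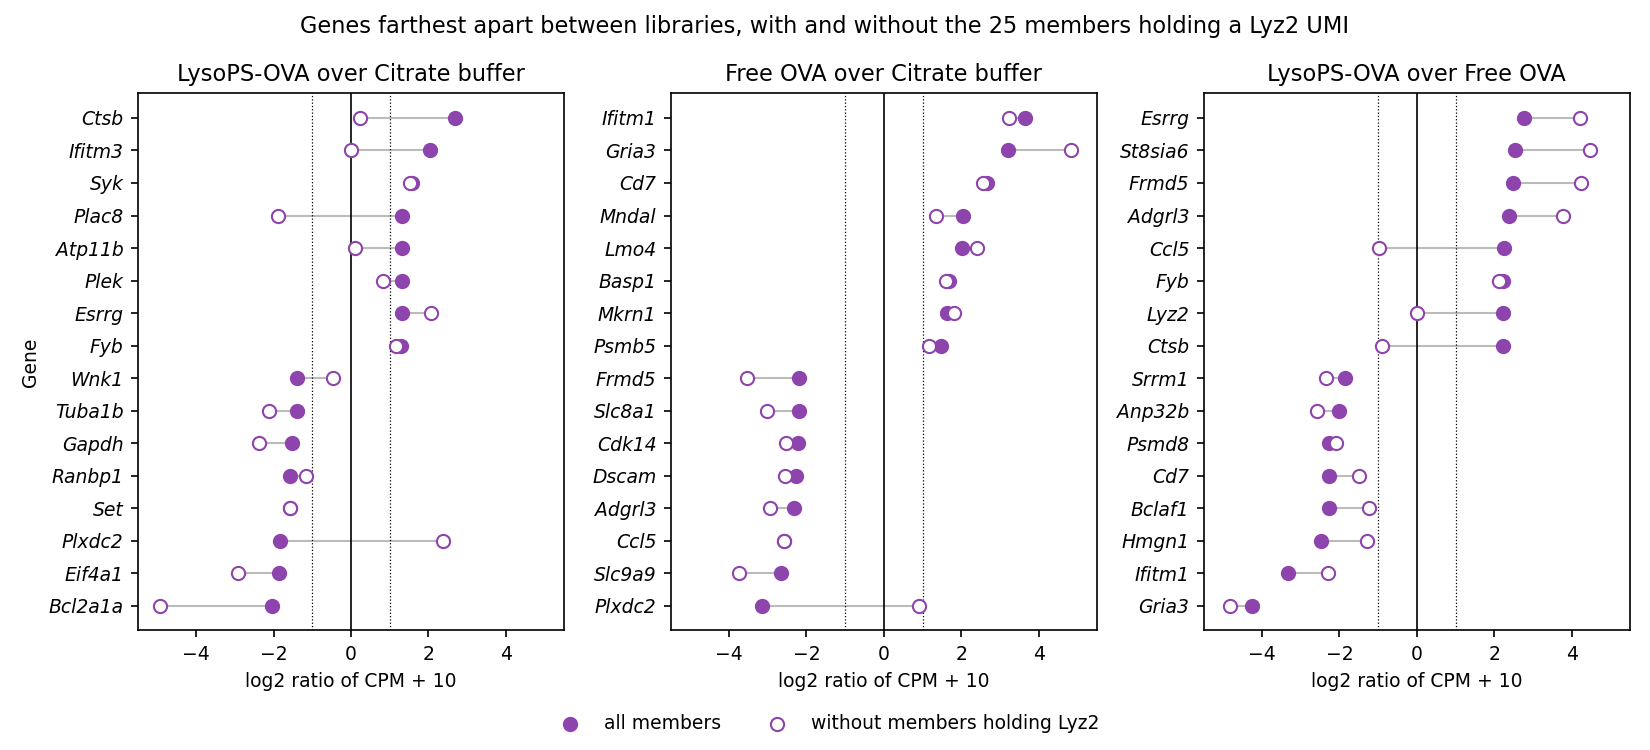
log2 ratio of CPM + 10 for the 8 highest and 8 lowest genes of each library comparison, for all members (filled) and without the 25 members that held a Lyz2 UMI (open), with dotted lines at 1 log2 either way. For LysoPS-OVA over citrate buffer 9 of 16 genes stayed past 1 log2 the same way, against 15 of 16 for free OVA over citrate buffer and 13 of 16 for LysoPS-OVA over free OVA. Without the Lyz2 members, 2 members held 17276 of the 23606 LysoPS-OVA UMIs.

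Gene lists were read by their counts and medians beside all genes at the same floors. Lysosome and uptake genes were higher in LysoPS-OVA than in citrate buffer in 4 of 5 measured (median 0.48), against 148 of 382 over all genes (median -0.14). In free OVA they were lower than in citrate buffer in 5 of 5 (median -0.62), against 242 of 598 over all genes (median 0.10). Between LysoPS-OVA and free OVA all 5 were higher (median 1.13), against 140 of 560 over all genes (median -0.27). Of the 5, Cybb was at 0.66 over citrate buffer and 1.13 over free OVA for all members, and at -0.77 and -0.25 without the Lyz2 members. Ctsh, a lysosomal aminopeptidase, was at 0.48 over citrate buffer and 1.58 over free OVA for all members, and at 1.70 and 2.59 without them. The values without the Lyz2 members rest largely on 2 LysoPS-OVA members. Between the same libraries Ctsh was higher in LysoPS-OVA than in citrate buffer in cDC1 barcodes too (1.61) and in migratory barcodes (1.03). MHC class II machinery was higher in LysoPS-OVA than in citrate buffer in 5 of 6 measured (median 0.43), of which 1 lay past 1 log2, against 148 of 382 over all genes (median -0.14). It was higher in LysoPS-OVA than in free OVA in 6 of 8 (median 0.47), of which 2 lay past 1 log2, against 140 of 560 over all genes (median -0.27). Without the Lyz2 members fewer than 3 genes of this list reached the floors in either comparison, so no median was taken. Ctsb is the gene past 1 log2 against citrate buffer. Cathepsin S (Ctss) stood at 1460 CPM in LysoPS-OVA, 656 in free OVA and 769 in citrate buffer, and Cd74 at 14390, 11000 and 12770 CPM.

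The monocyte-sharing list had 4 measured genes, Lyz2, Lst1, Ms4a6c and S100a4. All 4 were higher in LysoPS-OVA than in citrate buffer (median 0.51), of which 0 lay past 1 log2, and 3 of 4 were higher than in free OVA (median 1.23), all 3 past 1 log2. The shares and medians over all genes are those given for the lysosome list. In free OVA 1 of 4 was higher than in citrate buffer (median -0.31). Lst1, a small myeloid membrane protein, was at 0.99 for LysoPS-OVA over citrate buffer and at -0.24 without the Lyz2 members, and Ms4a6c was at 0.84 and 0.20. MHC class I genes had 3 of 7 higher in LysoPS-OVA than in citrate buffer (median -0.20) and 5 of 9 higher in free OVA than in citrate buffer (median 0.01), close to the medians over all genes.

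Genes that bear on the lipid and on tolerance were sparse in members, and none of the costimulatory, cytokine, retinoic acid, tolerogenic and lysophosphatidylserine lists had a gene at the floors of the library comparisons. The lysophosphatidylserine receptor Gpr34 had 5 UMIs in 4 members of LysoPS-OVA, none in free OVA and 6 UMIs in 4 members of citrate buffer. A further receptor of this lipid, P2ry10, had 4, 8 and 17 UMIs, and Abhd12, which degrades it, had 10, 7 and 4 UMIs. These counts are too few to set the libraries apart.

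Among receptors for phosphatidylserine, Cd300a was the most widely seen of those named, in 29 members, at 305 CPM in LysoPS-OVA, 194 in free OVA and 198 in citrate buffer. Havcr2 (Tim-3) was seen in 15 members, at 96.3, 22.8 and 154 CPM, and in 0.333% of B cell barcodes. The bridging-ligand receptors Axl and Mertk had 5 and 2 UMIs, all in citrate buffer, and Timd4 had none. Of 9 tested genes of this list 5 were higher in members than in migratory barcodes (Cd300a, Havcr2, Lrp1, Cd300lf and Elmo1), and 2 of 6 were higher than in cDC1 with Cd36 lower. The background shares of calls are those given for these comparisons.

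Tolerance-linked genes were few. Il10 had no UMI in any member, Aldh1a2 had 1 UMI, in free OVA, and Tgfb1 stood at 225 CPM in LysoPS-OVA, 120 in free OVA and 154 in citrate buffer from 8, 10 and 9 members. The inhibitory ligand Cd274 (PD-L1) stood at 96.3, 74.1 and 143 CPM from 4, 9 and 5 members, and B cells held it in 21.8% of barcodes. It averaged 104 ± 35.1 CPM in members and 8.64 ± 8.57 CPM in cDC1 (SD, n = 3 libraries), a rise of 2.95 log2 by edgeR's quasi-likelihood test (adjusted p 0.00622), and it was not among the genes that could be tested without the Lyz2 members. The aryl hydrocarbon receptor Ahr had 5, 4 and 17 UMIs. Il6, Il12a, Il12b, Il23a and Il1a had no UMI in any member, which at these depths limits the members with a captured UMI and not the cells that use the genes.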

How the data were processed

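The deposited files are raw UMI counts per gene and cell barcode in 3 single-cell libraries. Per the submitters' processing notes the authors used Cell Ranger 7.2.0 and mm10. Barcodes under 300 genes or over 10% mitochondrial UMIs were left out, which left 17323 in LysoPS-OVA, 23331 in free OVA and 26348 in citrate buffer, of 20873, 28660 and 28927 deposited, with 84089686, 81559237 and 96616683 UMIs. Doublets were limited by the Cd3e, Ms4a1 and Xcr1 limits. Scrublet (in scanpy 1.11.5), tried as an alternative, called 0, 0 and 1 members. The members and gene lists were chosen with earlier results of these data known. UMIs were summed over members per library. Libraries were compared by CPM with a pseudocount of 10 CPM and exact Poisson or binomial intervals at 95%, which cover counting error only, with no test. Classes were compared with edgeR 4.0.16 (quasi-likelihood, TMM, filterByExpr, library term, Benjamini-Hochberg over all genes tested, threshold 0.05), with DESeq2 1.42.0 as an alternative. The genes named are the 8 highest and 8 lowest of each comparison outside the rule, immunoglobulin, T cell receptor, ribosomal, mitochondrial, haemoglobin and unnamed genes, plus a fixed list, and genes of the lists. On simulated data the edgeR step recovered 60.2% of 4-fold changes against migratory, 94.7% against cDC1 and 99.0% against C1q barcodes, on 5792, 2663 and 1279 genes. For 2-fold changes it recovered 10.5%, 25.6% and 53.3%. The simulated counts had 1 fixed spread (negative binomial dispersion 0.05) and no concentration of UMIs in a few members. Recovery in the real data may therefore be lower. Positions are from GENCODE vM21 (GRCm38), which matched 32158 of 32285 genes. Other steps used Python 3.11.15 and R 4.3.3.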

Additional observations from a re-analysis of the deposited data

How the results depend on the processing

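The members are few and hold few UMIs, sums over them rest on a few deep barcodes, and the counts of genes moved with several choices of members. No paired analysis was possible because each treatment group is 1 library, so the groups share fewer than 2 replicate numbers. The class comparisons carry the library as a term. Dropping the Cd3e and Ms4a1 limits, leaving out the deepest member of each library, leaving out the haemoglobin-rich barcode and leaving out the Lyz2 members were chosen after seeing the data.

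The ratio of member shares for LysoPS-OVA over citrate buffer was 2.15 of antigen-presenting barcodes with Malat1 at 0.5% or more. For free OVA over citrate buffer at 4 or more markers it was 3.20 of kept and 1.90 of antigen-presenting barcodes. Of kept barcodes it was 1.26 (0.891 to 1.78) with the Cd3e and Ms4a1 limits dropped. It was 1.56 (0.777 to 3.15) without barcodes holding B or T cell receptor genes. A marker list without Ifitm6, Mcemp1 and Itgam gave 1.29 (0.468 to 3.56), and Malat1 at 0.5% or more gave 1.39 (0.576 to 3.35). These intervals include 1, and in the other settings tried the interval lay above 1. For LysoPS-OVA over free OVA the ratio was 0.842 of kept and 1.67 of antigen-presenting barcodes with the marker list without Ifitm6, Mcemp1 and Itgam. Without the Lyz2 members it was 0.269 and 0.541. After thinning to 1000 UMIs it was 0.222 of kept barcodes, and with Malat1 at 0.5% or more 1.66 of antigen-presenting barcodes. Of kept barcodes its interval included 1 with that marker list and at 4 or more markers. The same held with Malat1 at 0.5% or more and without barcodes holding B or T cell receptor genes.

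The genes called for LysoPS-OVA over citrate buffer were 139 at 2 or more markers, 14 at 4 or more, 20 with the short marker list, 60 without the deepest members, 132 with the Cd3e and Ms4a1 limits dropped, 5 after thinning, 443 at 20 CPM and 10 UMIs and 5243 with no filter. For free OVA over citrate buffer they were 205 at 2 or more markers, 36 without barcodes holding 2 monocyte genes, 194 with the limits dropped, 11 after thinning, 528 at 20 CPM and 3759 with no filter. For LysoPS-OVA over free OVA they were 72 without barcodes holding B or T cell receptor genes, 78 without those holding monocyte genes, 60 with Malat1 at 0.5% or more, 19 after thinning, 645 at 20 CPM and 4068 with no filter. Of the 8 gene lists with at least 3 genes at the floors, 62.5% lay above the median of all genes for LysoPS-OVA over citrate buffer, and 100% did at 4 or more markers (3 lists), with Malat1 at 0.5% or more (5 lists) or without the Lyz2 members (3 lists). For free OVA over citrate buffer 30% of 10 lists did, and 73.9% of 23 at 2 or more markers.

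Against migratory barcodes 994 genes passed by DESeq2, 596 after thinning, 930 without the Lyz2 members, and 996 to 1454 with 1 library left out. Against cDC1 these counts were 293, 107, 269 and 187 to 430, and 287 without the library term. Against C1q barcodes they were 135 by DESeq2, 68 after thinning, 368 with no filter and 83 to 284 with 1 library left out. Between the lectin subsets 1 gene passed with no filter, 1 after thinning, and 0 to 1 with 1 library left out.

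Log2 ratios changed sign for some genes, and the cause was not tested. For LysoPS-OVA over citrate buffer, Plxdc2 was 1.41 without the deepest members, Tuba1b 0.57 at 2 or more markers and Ranbp1 0.57 with Malat1 at 0.5% or more. Without barcodes holding B or T cell receptor genes, Esrrg was -5.16, Atp11b -0.91 and Plac8 -0.16. Without those holding monocyte genes, Atp11b was -0.64 and Plac8 -0.53. Plac8 was -0.80 with the short marker list and -1.87 without the Lyz2 members. For free OVA over citrate buffer, Frmd5 was 0.40 without lymphocyte genes and Psmb5 -0.078 at 2 or more markers. For LysoPS-OVA over free OVA, Frmd5 was -3.17 and Ccl5 -3.40 without lymphocyte genes, Ccl5 -1.30 and Ctsb -0.79 without monocyte genes, Ccl5 -0.98 and Ctsb -0.91 without the Lyz2 members, and Lyz2 -2.10 with the short marker list.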
